A study of Rousettus aegyptiacus with 32 samples.

Results

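Liver-only open regions are stretches of chromatin in the Egyptian fruit bat that were called open in liver in both animals examined. They carried no interval in the deposited peak lists of the other tissues. They were chosen by the measured peak strengths. In each of the 20 peak lists, intervals were ranked by the -log10 p that the peak caller gave them, and the 50000 with the highest values are called strong here. Strong intervals of the 2 liver lists were merged into 92129 regions, and a region was kept if it overlapped a strong interval in both livers and no deposited interval of any rank in the 18 other lists. The rule kept 249 regions, which is 0.27% of all strong liver regions and 3.36% of the 7406 regions that were strong in both livers. Merging the intervals of all 20 lists gave 856519 regions in the series as a whole.

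The study measured chromatin accessibility and gene expression in Rousettus aegyptiacus, in work on regulatory elements and proteins that evolved convergently with vocal learning. ATAC-seq, in which a transposase inserts sequencing adapters wherever DNA is accessible, was run on bulk tissue of 2 adult males, bats 1 and 3, with 1 library per tissue and animal. The 10 tissues were liver, muscle, testis, cerebellum, the caudate and putamen of the striatum, and 4 cortical areas labelled 2A, ofM1, wM1 and PreM. The labels name no treatment, strain or genotype for any group. RNA-seq covered cortical and striatal tissue of other bats and was not used here, so no liver expression stands beside the liver regions. The 2 livers come from 2 animals, so spread between them includes differences between animals, and no value for liver rests on more than 2 libraries.

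Liver is built mostly of hepatocytes, which make the plasma proteins (albumin, fibrinogen, apolipoproteins and clotting factors) and carry out the urea cycle, gluconeogenesis, bile acid synthesis and drug metabolism. The remaining cells include cholangiocytes of the bile ducts, sinusoidal endothelium, Kupffer cells, which are the resident macrophages, and stellate cells, which store vitamin A. Regions open in 1 tissue are as a rule enhancers or promoters of genes used there, whereas promoters of widely expressed genes are open almost everywhere. Liver enhancers are classically bound by FOXA and CEBP factors. In bulk tissue, fewer cells of a type with an open site and less opening per cell cannot be told apart.

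Before the results, the liver libraries themselves stood apart from the others. Their fold enrichment, the caller's ratio of signal over its local background, had a median of 2.23 in bat 1 and 3.51 in bat 3 over the strong intervals, against 3.59 to 12.8 in the 18 other libraries. The weakest strong interval had a -log10 p of 4.23 in liver of bat 1 and 4.80 in liver of bat 3, against 5.65 to 196 elsewhere. The 2 liver lists also differed from each other. A strong interval lay within 1 kb of either end of 30.3% of 19038 protein-coding genes in liver of bat 1 and of 59.2% in liver of bat 3, while the 18 other libraries reached 61.2% to 68.7%. Of 12 housekeeping genes, which every cell uses, 25% had such an interval in liver of bat 1 and 75% in liver of bat 3, against 83.3% to 100% elsewhere. Gene ends are used in place of gene starts throughout, because the RefSeq gene table (assembly mRouAeg1.p) gives no strand. The number of reads behind the lists is unknown, and the part that depth or library quality plays in the liver results was not tested.

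The tissue label was checked against marker genes. Of 33 hepatocyte markers, 5 had a strong interval within 1 kb of an end in liver of bat 1 and 15 in liver of bat 3, against 4 to 6 in each of the other 18 libraries. The liver of bat 3 thus stood clear of every other library, whereas the liver of bat 1 lay inside their range. Expressed as percentages, the livers had 15.2% and 45.5%, and the other libraries averaged 14.1% ± 1.80 (SD, n = 18). The mean of the livers was 16.2 percentage points higher, with an exact 2-sided permutation p of 0.0632 over all 190 ways to pick 2 of the 20 libraries, where the smallest possible p was 0.00526. The 20 libraries come from the same 2 animals and are not independent of each other. Most of the 190 pairs also mix tissues, so each p here is over libraries and not over tissues. Exchanging whole tissues, of which there are 10, could not reach a p of 0.05. The difference did not pass the threshold of 0.05. Without bat 1 it was 31.3 points, with bat 3 above every other library and an exact p of 0.0526, the smallest that 19 arrangements allow. Without bat 3 it was 1.01 points (exact p = 1). Counting every deposited interval gave 16.8 points with an exact permutation p of 0.0368. There, liver of bat 1 had 45.5%, inside the 27.3% to 51.5% of the other libraries, and liver of bat 3 had 66.7%. In an alternative chosen after seeing the data, each library's percentage was divided by its percentage over all protein-coding genes. The ratio was then 0.501 in liver of bat 1 and 0.767 in liver of bat 3, both above the 0.176 to 0.271 of the other libraries (exact permutation p = 0.00526, the smallest possible). In liver of bat 1 the ratio divides the same 15.2% by 30.3% over all protein-coding genes, against 61.2% to 68.7% elsewhere. Its higher ratio thus comes from that low share and not from more markers.

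**Figure D1:**
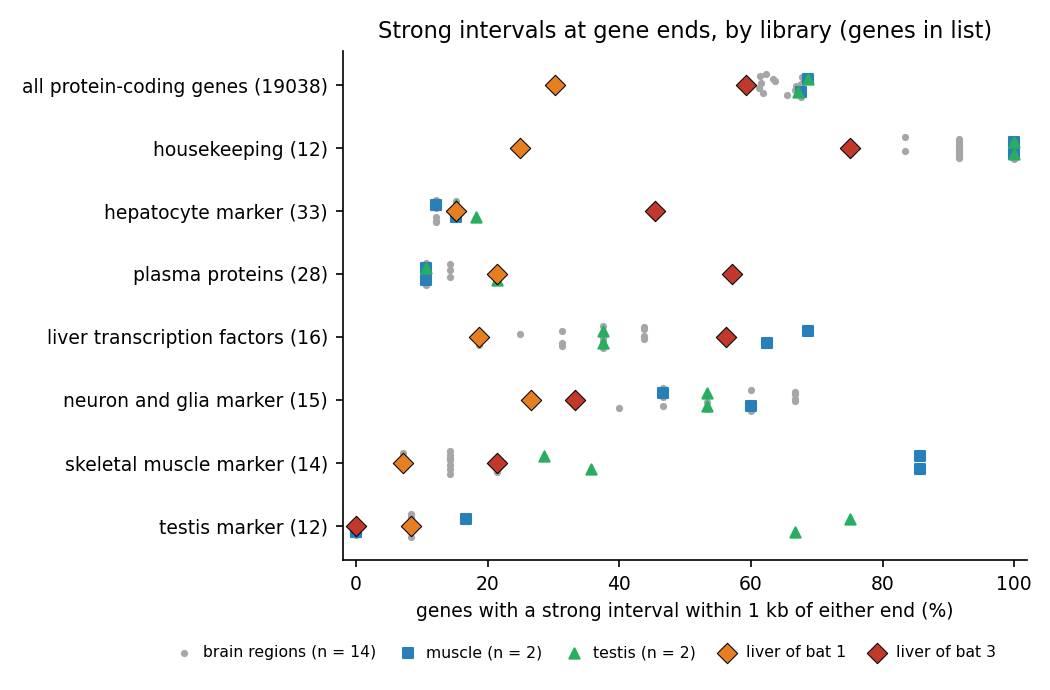
Percentage of the genes of 8 lists with a strong interval within 1 kb of either gene end (x axis), with 1 point per library and the number of genes in each list in parentheses. The liver of bat 3 (red diamond) reaches 45.5% of hepatocyte markers and the liver of bat 1 (orange diamond) 15.2%, against 12.1% to 18.2% elsewhere, while muscle and testis lead for their own marker lists.

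Most gene groups behind this check had more genes with a strong interval in liver of bat 3 than in liver of bat 1, as all protein-coding genes did (59.2% against 30.3%). Complement and acute phase genes had 3 of 12 in each liver. Among 28 plasma protein genes, 6 had a strong interval at an end in liver of bat 1, 16 in liver of bat 3 and 3 to 6 elsewhere. Among 16 liver transcription factors, which include widely used regulators, the livers had 3 and 9 and the other libraries 3 to 11, so liver was not the highest. Genes of the urea cycle and amino acid metabolism gave 1 and 8 of 16, against 4 to 8 elsewhere. The 2 muscle libraries reached up to 85.7% of 14 skeletal muscle markers and the 2 testis libraries up to 75% of 12 testis markers, so the same check separated those tissues in both bats. Markers of other tissues in the livers lay within or below the range of the other libraries: 1 and 3 of 14 skeletal muscle markers, 1 and 0 of 12 testis markers, and 4 and 5 of 15 neuron and glia markers carried a strong interval, the last against 6 to 10 elsewhere. For the other cells of liver itself, 0 and 2 of 11 endothelial and Kupffer markers and 1 and 3 of 9 cholangiocyte and stellate markers did, within the range of the other tissues (0 to 3 and 2 to 5) apart from the 1 of 9 in bat 1.

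The hepatocyte markers with a strong interval at an end in both livers numbered 5. They were ALB (serum albumin), APOA1 and APOB (the main proteins of high- and low-density lipoproteins), FGG (the fibrinogen gamma chain) and ITIH3 (a heavy chain of the plasma protein inter-alpha-trypsin inhibitor). APOA1 and APOB carried one in all 18 other libraries as well, and FGG in 1 of them. ITIH3 had no strong interval elsewhere but lower-ranked ones in 7 libraries. ALB was the only one of the 33 with strong intervals in both livers and no interval of any rank at its ends elsewhere, and it is the marker that the liver-only regions contain. A further 10 markers were strong in liver of bat 3 but not in liver of bat 1. Among them, ARG1, F2, FGA, HPX and ITIH1 had no strong interval in another tissue. Lower-ranked intervals lay at ARG1 in 13 other libraries, at F2 in 6 and at FGA and HPX in 2 each, whereas ITIH1 had none. HPD carried a strong interval in all 18 other libraries, and TAT and TTR in 2 each. No marker was strong in liver of bat 1 but not in liver of bat 3.

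The region beside ALB was also the strongest of the 249 when regions were ordered by the weaker of their 2 -log10 p values. It spans NW_023416285.1:51361731-51362977, in the coordinates of the deposited lists, for which the sources used here name no genome build, and lies 183 bases from the nearer end of ALB. With 1247 bases it was the widest liver-only region. In liver of bat 1 it had a fold enrichment of 2.98 and a -log10 p of 9.78 and ranked 1520th of that list. In liver of bat 3 it had a fold enrichment of 4.74 and a -log10 p of 26.6 and ranked 2520th. The summits called in the 2 animals were 7 bases apart. The nearest interval of another tissue was a lower-ranked one in muscle of bat 3, 726 bases away, followed by one in testis of bat 1 at 989 bases. On the side of the region facing away from the gene, both testis libraries had a strong interval about 2.2 kb off (2170 and 2234 bases) and both caudate libraries one at 3169 and 3353 bases, with caudate fold enrichments of 12.6 and 14.5. The absence of deposited intervals in other tissues therefore held for the region itself and not for its flank. Inside ALB, liver of bat 3 had a further strong interval, 8922 bases from the region, ranked 49630th. Liver of bat 1 had one on the side facing away from the gene, 474 bases from the region, ranked 19369th. Liver of bat 3 had no interval at that place.

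**Figure D2:**
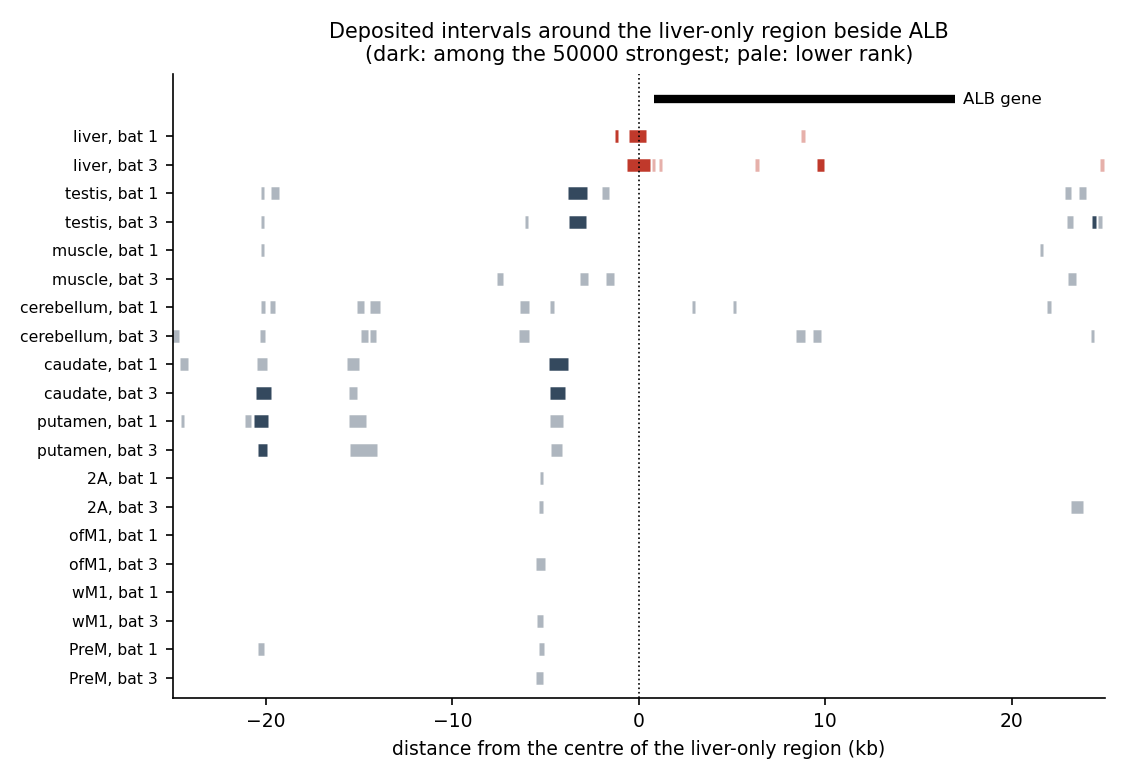
Deposited intervals around the liver-only region beside ALB in all 20 libraries, by distance in kb from the centre of the region (x axis), with strong intervals dark, lower-ranked ones pale, liver in red and the ALB gene as a black bar. Only the 2 livers have an interval at 0 kb, while every other tissue has an interval a few kb to the left in at least 1 bat.

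Liver-only regions were of ordinary strength for liver by the caller's measures, which are the values that chose them and so are given without a test. Their width was 166 to 1247 bases with a median of 330, above the median of 231 over all strong liver regions and below the 597 of the 7157 regions strong in both livers that had an interval elsewhere. A width above that of all strong liver regions follows in part from the rule. Each liver-only region joins intervals of both livers, whereas 84723 of the 92129 strong liver regions were strong in 1 liver alone. Fold enrichment ran from 1.96 to 4.38 in bat 1 (median 2.25) and from 2.77 to 8.33 in bat 3 (median 3.44), close to the medians of 2.23 and 3.51 over the strong intervals of the 2 lists. The -log10 p ran from 4.23 to 20.2 in bat 1 (median 5.13) and from 4.81 to 35.1 in bat 3 (median 6.39). The typical member therefore sat in the middle of the strong intervals, at a median rank of 21775 in bat 1 and 27489 in bat 3. The regions shared with other tissues were stronger in bat 3, with a median -log10 p of 15.4, and little different in bat 1, at 5.97.

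Strength in 1 liver said little about strength in the other. Over the 249 regions Spearman's rho between the -log10 p of the 2 livers was 0.0561, and over the 7157 shared regions it was 0.389. Both are descriptions across regions that come from the same pair of libraries and were all required to pass a rank limit in each. The -log10 p was higher in bat 3 for 182 regions and the fold enrichment for 244, and the strong intervals of that list had the higher median fold enrichment as a whole (3.51 against 2.23). Among the 5000 strongest intervals, liver of bat 1 held 29 of the regions and liver of bat 3 held 16, and 4 regions were in both sets. Many values were identical between regions: 67 regions in bat 1 and 82 in bat 3 shared fold enrichment and -log10 p with another member, including 18 at a -log10 p of 4.25 in bat 1 and 25 at 5.28 in bat 3.

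**Figure D3:**
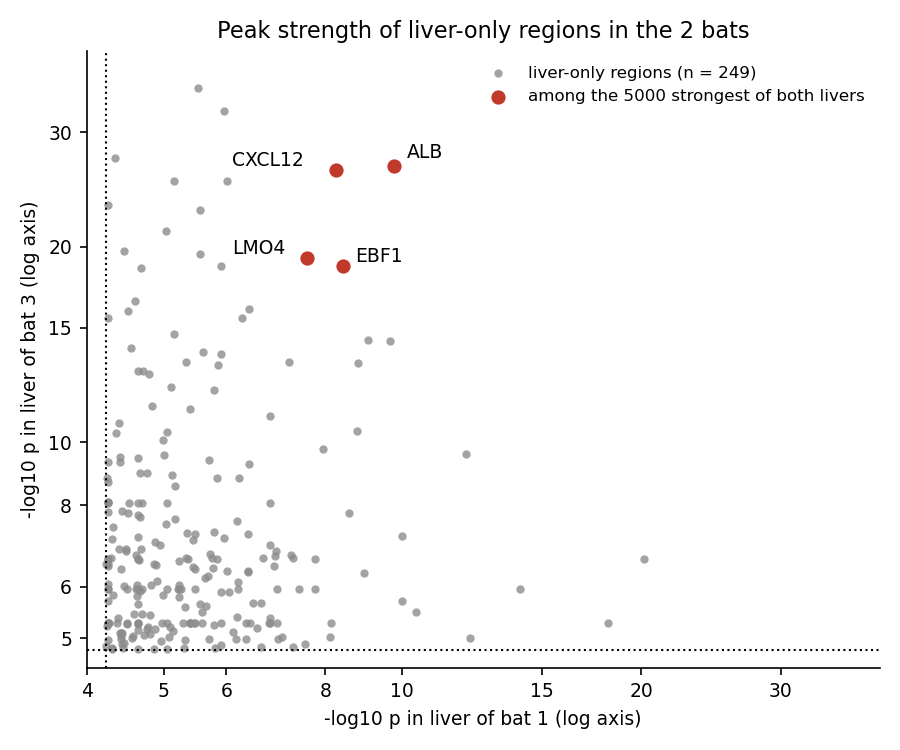
The -log10 p of each of the 249 liver-only regions in liver of bat 1 (x axis) and liver of bat 3 (y axis), both on log axes, with dotted lines at the weakest strong interval of each list. The points spread along both axes (Spearman's rho 0.0561), and the 4 regions among the 5000 strongest of both livers are marked by their nearest gene.

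The 4 regions among the 5000 strongest of both livers had ALB, CXCL12, EBF1 and LMO4 as their nearest genes. The region nearest to CXCL12, which encodes a chemokine that retains blood stem cells in their niche, lay 144 kb from the gene at NW_023416309.1:62366574-62366990. Its fold enrichment was 2.85 in bat 1 and 8.29 in bat 3, with -log10 p of 8.26 and 26.2. A region inside EBF1, a transcription factor of B cells and stromal cells, at NW_023416310.1:84139434-84139749, had fold enrichments of 2.69 and 6.55 and -log10 p of 8.41 and 18.6. The region nearest to LMO4, a LIM-domain transcription cofactor, was 521 kb from that gene, had fold enrichments of 2.65 and 6.78 and -log10 p of 7.59 and 19.2, and had summits 5 bases apart. The LMO4 region is outside the 10 strongest by the weaker value and is named after its values were seen.

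The other strongest regions by the weaker value had as nearest gene CACNA1D, SPART, RAD18, CYRIA, TTC36, SEMA4D and DCUN1D4. Those in CACNA1D (a voltage-gated calcium channel subunit; NW_023416307.1:115264863-115265235), RAD18 (a ubiquitin ligase of DNA damage tolerance; NW_023416307.1:119237568-119237931), SEMA4D (a semaphorin; NW_023416306.1:75252422-75252652) and DCUN1D4 (NW_023416285.1:66090770-66091262) lay inside the gene. Those nearest to SPART (NW_023416286.1:11390230-11390430), CYRIA (NW_023416310.1:7598348-7598740) and TTC36 (NW_023416308.1:34273478-34273783) lay 36.7, 91.1 and 33.8 kb away. Their fold enrichments were 2.48 to 3.38 in bat 1 and 3.76 to 5.79 in bat 3. None of these 7 genes is in the liver lists. The CYRIA region had an interval of ofM1 of bat 3 only 9 bases from its edge, and the DCUN1D4 region one of wM1 of bat 1 at 32 bases.

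Single livers ranked other regions first. The highest -log10 p in bat 3 was 35.1, in a region 32.2 kb from TAPT1, where liver of bat 1 had 5.52 and an interval of testis of bat 1 began 5 bases away. The highest in bat 1 was 20.2, at rank 349, in a region 92.6 kb from LOC107498786, where liver of bat 3 had 6.63. Regions with a far higher -log10 p in bat 3 than in bat 1 included one in RHAG, the Rh-associated glycoprotein of red blood cells (25.2 and 6.01), one in STEAP3, a ferrireductase of iron uptake (18.5 and 4.69), and one in SLC39A8, a zinc and manganese importer (19.7 and 4.46). These genes were chosen after their values were seen.

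Regions near the rank limit show how finely it divides. The last regions inside ranked 49884th and 49872nd in liver of bat 3, nearest to MED10 and in FBXW8, and 49791st in liver of bat 1. The first outside ranked 50157th in liver of bat 3, with a -log10 p of 4.79 against 4.81 for the last inside, and 50014th in liver of bat 1, where both sides had 4.23.

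The summits of the 2 livers lay a median of 65 bases apart in liver-only regions (0 to 399), against 55 in the regions shared with other tissues. They were within 50 bases of each other in 106 regions (42.6%), against 47.8% of the shared regions. The rule required overlap but no distance between summits. The same construction for other tissues gave 1064 muscle-only, 2012 testis-only and 1957 cerebellum-only regions, with summits a median of 27, 33 and 8 bases apart. The median width was 508 bases in the testis-only and 752 bases in the cerebellum-only regions. The 2 livers thus placed their summits farther apart than the 2 animals did for these 3 tissues. Median fold enrichment in those sets was 3.42 and 6.74 for muscle, 3.57 and 4.12 for testis and 7.75 and 6.66 for cerebellum in bats 1 and 3, higher than the 2.25 and 3.44 of the liver-only regions in each case.

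Agreement between the livers was limited in all strong liver regions. Of the 92129, 84723 were strong in 1 liver alone, and 27974 of these had no interval in another tissue. They comprised 18540 of the 42271 strong in bat 1 alone (43.9%) and 9434 of the 42452 strong in bat 3 alone (22.2%). A lower-ranked interval in the other liver was present in 902 of the former (4.87%) and 686 of the latter (7.27%). The liver-only regions are therefore few beside the regions strong in a single liver and listed in no other tissue.

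Among the 7406 regions strong in both livers, most had intervals in every other tissue. Intervals were present in all 18 other libraries for 5282 regions (71.3%), in none for the 249, and in 50 to 236 regions for each number between. Regions with an interval in exactly 1 other library numbered 186, and that library was testis of bat 1 for 55, testis of bat 3 for 36, muscle of bat 1 for 33 and muscle of bat 3 for 23. Cerebellum accounted for 12 and 6, and the 12 cortical and striatal libraries for 0 to 5 each. Testis and muscle have lists that reach weaker peaks than every brain list. They end at a -log10 p of 2.00 to 2.80, against 3.30 to 12.3 for the brain lists. The additional interval was weak as a rule: its median -log10 p was 4.40 and its median fold enrichment 2.44, and it was among the 50000 strongest of its own library for 23 of 186.

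**Figure D4:**
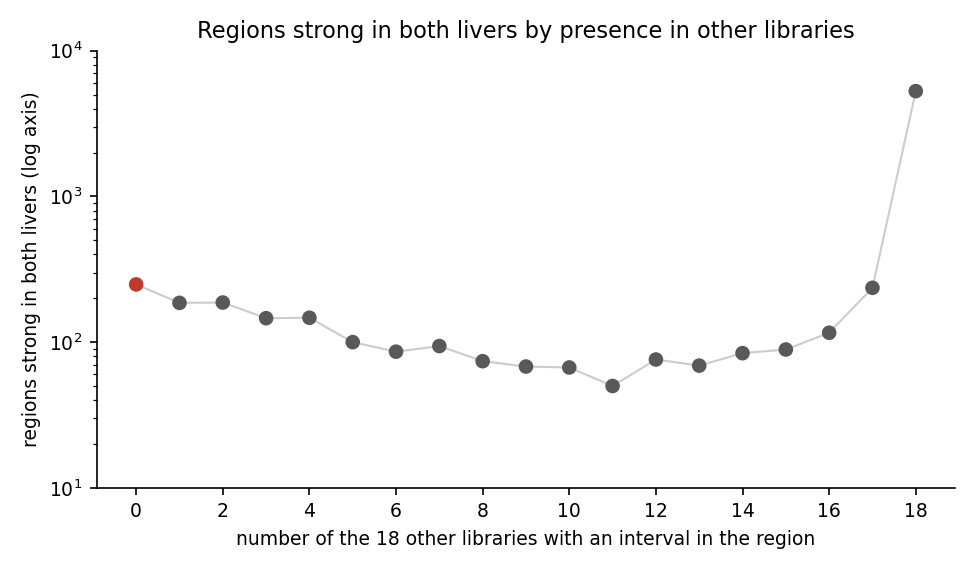
Number of regions strong in both livers (y axis, log scale) by how many of the 18 other libraries have a deposited interval there (x axis), with the liver-only regions in red. The number falls from 249 regions at 0 libraries to 50 at 11 and then climbs to 5282 at 18.

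Absence elsewhere was set by a different limit in each list. The deposited lists are cut at a fixed number of rows, and 15 of the 18 other lists end before the -log10 p of 2.00 that the remaining 3 reach, the earliest at 12.3 in caudate of bat 1. Of the liver-only regions, 212 had a -log10 p under 12.3 in both livers, so a peak of that strength in caudate of bat 1 would not have been listed. In 8 of the 18 lists the weakest interval exceeded the median of the liver-only regions in bat 1. The nearest interval of another tissue was a median of 557 bases away, within 500 bases of 116 regions, within 1000 bases of 169 and within 10 kb of 248 of the 249. This distance was not measured for other regions. The series holds 856519 merged regions, so closeness cannot be read as a trait of the liver-only regions.

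Few liver-only regions lay at gene ends, which the rule largely sets in advance, because it drops any region with an interval elsewhere. In each of the 18 other libraries, 73.4% to 84.3% of protein-coding genes had an interval of any rank within 1 kb of an end. A low share is therefore no result about liver. Of the 249, 13 (5.22%, exact 95% binomial interval 2.81 to 8.76, which covers counting error only) were within 1 kb of an end of a protein-coding gene, against 14.9% of all strong liver regions and 55.8% of the shared regions. The other sets without a deposited interval elsewhere were similarly placed, at 2.48% for bat 1 alone, 3.66% for bat 3 alone, 5.92% for muscle-only, 5.82% for testis-only and 1.53% for cerebellum-only regions. Inside a protein-coding gene lay 119 of the liver-only regions (47.8%), against 53.1% of all strong liver regions and 73.1% of the shared regions. The share was 43.9% for bat 1 alone and 50.5% for bat 3 alone. It was 59.6% for muscle-only, 44.7% for testis-only and 43.0% for cerebellum-only regions. A further 47 liver-only regions were over 100 kb from any protein-coding gene. The gene table gives no exons, so exonic and intronic regions were not separated.

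**Figure D5:**
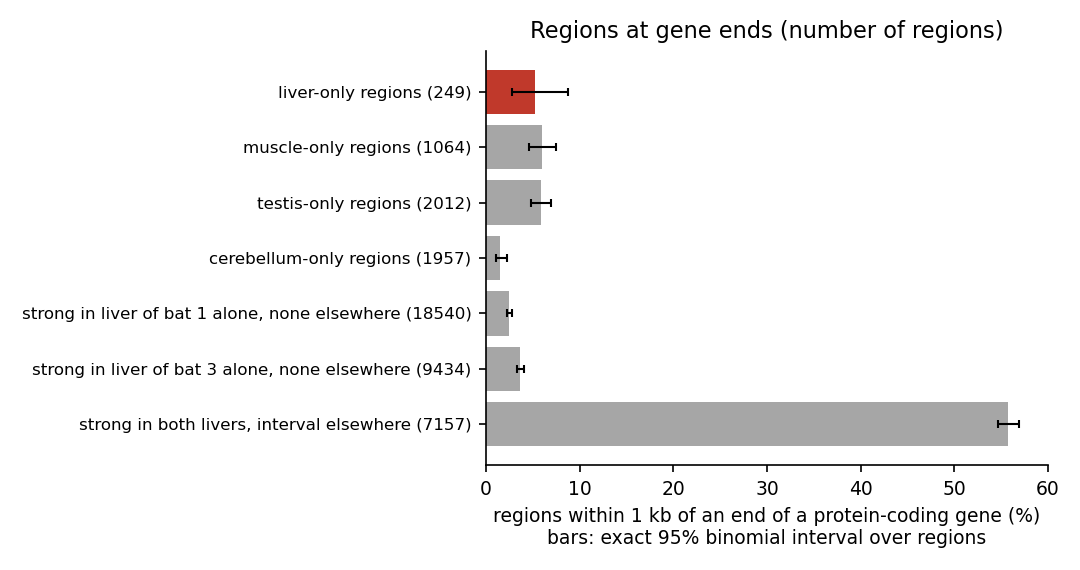
Percentage of regions within 1 kb of an end of a protein-coding gene (x axis, bars, with exact 95% binomial intervals over regions) for liver-only regions and 6 other sets, with the number of regions in parentheses. Liver-only regions reach 5.22%, close to the muscle-only and testis-only sets, and regions strong in both livers with an interval elsewhere reach 55.8%.

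The 13 genes with a liver-only region within 1 kb of an end were ALB, ARHGAP20, CBLN1, GTF2IRD1, JMJD4, LYPLAL1, SAMD3, STEAP3, ZNF652 and 4 genes with LOC names. Apart from ALB they were named after their values were seen. ALB was the only one in a liver list. CBLN1, a synapse organiser of cerebellar granule cells, had a region with fold enrichments of 2.32 and 3.31 and an interval of ofM1 of bat 3 at 41 bases. LYPLAL1, a lysophospholipase-like gene, had one with 2.31 and 3.38 and summits 3 bases apart. GTF2IRD1, a transcription regulator related to TFII-I, had fold enrichments of 3.08 and 3.03.

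Few of the 107 placed genes of the liver lists lay near a liver-only region. Genes outside the lists were not counted, such as C7 and GLUD1, which each held a liver-only region. Within 50 kb of a gene of the 8 liver lists (plasma proteins, complement and acute phase, urea cycle and amino acid metabolism, glucose and fructose metabolism, bile acids and transport, drug metabolism, lipid metabolism and liver transcription factors) was 1 of the 249 regions, the one beside ALB, or 0.402%. Of all strong liver regions 0.786% were that close, and of the regions shared with other tissues 0.88%. The figure for regions strong in bat 1 alone was 0.426% (79 of 18540) and for bat 3 alone 1.24% (117 of 9434). With 1 region, the share of the liver-only regions cannot be told from these at this number. The list genes next nearest were APOB at 88.2 kb, FBP1 (the gluconeogenic fructose bisphosphatase) at 92.6 kb and ARG1 (arginase of the urea cycle) at 98.8 kb. The regions concerned had fold enrichments of 2.12, 2.89 and 2.15 in bat 1 and 2.92, 3.29 and 3.93 in bat 3.

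Marker genes of the other liver cells gave a similar picture. LRAT, which esterifies retinol in stellate cells, had a liver-only region at 18.2 kb with fold enrichments of 2.54 and 3.37. It was the only gene of the cholangiocyte and stellate list within 50 kb, and the endothelial and Kupffer, blood and immune, neuron and glia, skeletal muscle, testis and housekeeping lists had 0. In the other sets built by the same rule, 0.940% of muscle-only regions lay within 50 kb of a skeletal muscle marker (10 of 1064). Of testis-only regions, 0.249% lay that close to a testis marker (5 of 2012). Of cerebellum-only regions, 0.204% lay that close to a neuron and glia marker (4 of 1957). Over all strong liver regions the same lists gave 0.0999%, 0.0923% and 0.179%, in that order. Shares over all strong regions of those tissues were not computed. For liver-only regions and hepatocyte markers the share was 0.402% (1 of 249), against 0.216% of all strong liver regions. With 1 region, these cannot be told apart. Regions strong in a single liver and absent elsewhere lay within 50 kb of 23 of the 28 plasma protein genes in bat 3 and of 12 in bat 1. These sets, of 9434 and 18540 regions, are much larger than the 249, and counts of genes reached cannot be compared across sets of such different size.

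The 249 regions were scattered. They had 235 different nearest genes, 33 regions had one with a LOC name, and they lay on 17 scaffolds with a median spacing of 3.65 Mb between neighbours. Genes with 2 regions within 50 kb were CSMD1, MAGI2, NRXN3, AOPEP, FAT1, TRPM6, RAD18, SEMA4D, CWC15, KDM4D, ZNF333 and 4 genes with LOC names. CSMD1, MAGI2 and NRXN3, genes of over 1 Mb known from neurons, held both of theirs inside the gene, which spans 1035, 1221 and 1418 kb respectively. FAT1, a large cadherin, had one region inside (fold enrichments 2.45 and 5.66) and one 30.4 kb away (2.10 and 8.13). No gene had more than 2.

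The count changed strongly with the rule. Asking for no strong interval elsewhere, in place of none of any rank, gave 841 regions. Of these, 0.713% lay within 50 kb of a gene of the liver lists, no more than the 0.786% of all strong liver regions. The genes concerned included ALB, CPS1, ITIH1, ITIH3, ITIH4 and MBL2. CPS1 is the first enzyme of the urea cycle and MBL2 a lectin of the complement system. With the 20000 strongest intervals per library 33 regions remained, 1 of them beside ALB, which made 3.03%. With bat 3 alone setting the liver side 9709 regions passed, and with bat 1 alone 18820.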

How the data were processed

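Chromatin accessibility was measured by ATAC-seq in 10 tissues of bats 1 and 3 (20 libraries). Per the labels' protocols, nuclei came from cryopreserved bulk tissue. The submitters' processing notes name Bowtie2, MACS2 and Salmon 1.5.2 but no role for any of them. Settings and genome build: not given in the sources used here. The names of the deposited lists record trimming, removal of duplicate and mitochondrial reads, a shift of reads for Tn5 insertion and a p-value threshold of 0.01. The authors deposited 1 narrowPeak list per library, so peaks were called per library. Its columns give the authors' fold enrichment (a ratio), -log10 p and the summit position. Of the 20 lists, 15 hold 300000 rows, the limit. Read depth is unknown. The 12 RNA libraries, which are of brain tissue and list features without names, were not used.

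Rows with the same interval were collapsed with the highest -log10 p kept, and strong intervals are the 50000 highest per library. Overlap was at least 1 base. Positions are counted from 1. Folds and -log10 p were taken as deposited by the authors and were not rescaled between libraries. Scripts ran in Python 3.11.15 (numpy 2.4.6, pandas 2.3.3, scipy 1.17.1, matplotlib 3.10.9). The region search and the permutation test were checked on simulated data.

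Gene names come from RefSeq (assembly mRouAeg1.p). The table gives neither scaffold nor strand, so its runs of genes were placed on scaffolds by matching gene ends to strong summits of the 12 cortical and striatal libraries. That placed 19038 of 19070 protein-coding genes. On the chosen scaffold 14.0% to 32.1% of ends lay within 500 bases of a summit, against 2.41% to 5.08% on the next best. The windows planned around gene starts were therefore drawn around both gene ends. Distances to genes rest on this placement. A motif search and printed sequences were not used here.

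The marker percentage was compared between 2 liver and 18 other libraries by an exact 2-sided permutation test with a threshold of 0.05. Libraries with the same bat number come from the same animal, which pairs them. As a check, the bat 3 minus bat 1 difference at gene ends was correlated between tissues across genes, and r lay between -0.160 and 0.423 (median 0.00452). Of the 45 pairs of tissues, 6 were above 0.1. Alternatives were other numbers of strong intervals, ranking by fold, weaker absence, reciprocal overlap, other windows, each liver left out, absence in 1 bat, and the replicate block. Regions printed by position were the 10 with the highest weaker -log10 p and those within 10 kb of a liver list gene, with their nearest genes, liver list genes within 50 kb and genes with 2 or more regions within 50 kb. The regions and the 16 gene lists were chosen with earlier results of these data known. Some genes of the lists are counted but not reported here by name.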

Additional observations from a re-analysis of the deposited data

How the results depend on the processing

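The number of liver-only regions, 249, fell to 33 with the 20000 strongest intervals per library and to 149 when liver intervals had to overlap reciprocally by 50%. It rose to 1153 with the 100000 strongest, 4108 with every deposited liver interval, 841 with no strong interval elsewhere, 432 with absence asked in bat 3 alone, and 10974 with every liver interval and no strong interval elsewhere (chosen after seeing the data). Leaving out 1 liver gave 9709 to 18820. The share within 50 kb of a liver list gene was 3.03% with the 20000 strongest, where 1 region decides it, 0.694% with the 100000 strongest, 0.657% with every liver interval, 0.671% with reciprocal overlap, 0.713% with no strong interval elsewhere, and 0.425% to 1.22% with 1 liver left out, against 0.402%. A window of 100 kb gave 1.61%. The share within 1 kb of a gene end was 15.3% with a 5 kb window and 2.52% to 3.70% with 1 liver left out. The median summit distance was 28 to 96 bases, a shift within the spread over regions in each setting run. For the hepatocyte markers, the replicate block, which pairs libraries of the same bat, left the difference of 16.2 points and gave an exact permutation p of 0.06 (100 arrangements, smallest 0.01). Every deposited interval gave 16.8 points (exact permutation p = 0.0368). Division by the share of all genes gave a ratio difference of 0.417 (exact permutation p = 0.00526, chosen after seeing the data). Those 2 passed the threshold over libraries, which exchanging the 10 tissues as wholes could not do. In the first, liver of bat 1 lay inside the range of the other libraries. In the second, its ratio rests on its low share over all genes. The difference shrank to 9.76 points with the 20000 strongest (exact p = 0.1) and 7.24 points within 5 kb (exact p = 0.242). Across the alternatives the exact p ran from 0.00526 to 1. The 2 liver libraries and the fixed length of the lists limit what absence elsewhere can show.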

Other observations

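One scaffold held almost no liver-only regions. NW_023416312.1, which carries F9 (clotting factor IX) and OTC (ornithine transcarbamylase of the urea cycle), genes that are X-linked in most mammals, had 1 region over 106.5 Mb, or 0.0939 per 10 Mb. The other scaffolds with a liver-only region had 0.808 to 3.14 per 10 Mb. Regions strong in both livers were also few there, 59, and the liver-only share of them, 1.69%, cannot be told at this number from the 3.36% over all scaffolds. Another scaffold, NW_023416292.1, had 106 regions strong in both livers over 46.1 Mb and no liver-only region. Neither F9 nor OTC had an interval of any rank at an end in either liver.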
